A study of Bos taurus with 9 samples.

Results

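Extracellular proteases and the proteins that hold them in check were followed in bovine nucleus pulposus cells placed under salt. The genes were taken by symbol: matrix metalloproteinases (MMP), ADAM and ADAMTS proteases, tissue inhibitors of metalloproteinases (TIMP1 to TIMP4), serpins other than SERPINA1, the plasminogen activators PLAU and PLAT with the receptor PLAUR, cathepsin K (CTSK) and alpha-2-macroglobulin (A2M). Of the 9155 genes with a probe set of their own on the array, 54 met this rule: 11 MMP, 8 ADAM, 7 ADAMTS, 4 TIMP and 19 serpin genes, and PLAU, PLAT, PLAUR, CTSK and A2M. Each gene is represented by its brightest probe set, and 43 of the 54 were bright enough to be tested. The 11 others lay below a filter at an intensity of about 17.1 and were not tested: MMP13, MMP20, ADAM2, ADAMTS8, TIMP4, A2M, SERPINA7, SERPINA10, SERPINA14, SERPINF1 and SERPINI2.

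The arrays hold cells from the nucleus pulposus, the gelatinous core of the intervertebral disc, of the tail discs of young calves, grown in culture medium with serum. There were 3 arrays of cells given salt to 500 mOsm/kg for 24 h, 3 of cells given the same salt for 5 h, and 3 of untreated control cells, with replicates numbered 1 to 3 in each group. The study asked how transcripts respond to hyperosmotic stress at these times. The labels give the control no time, and the 3 control arrays serve both times, so time in culture and salt cannot be told apart. The labels call them biological replicates and do not say whether they are separate animals or cultures, so the p-values cover the variation among these samples only.

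In the disc, aggrecan binds the water that carries load, and its turnover is set by proteases and their inhibitors. ADAMTS proteases and MMPs cut aggrecan and collagen outside the cell, and the TIMPs block them by binding their zinc site. Urokinase (PLAU), held at the cell surface by its receptor PLAUR, and tissue plasminogen activator (PLAT) turn plasminogen into plasmin, which in turn activates pro-MMPs. Most serpins trap serine proteases, but a few, such as the collagen chaperone SERPINH1, inhibit none.

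Median intensity per array was between 67.1 and 84.5, and the highest was between 13521.7 and 15435.1. The arrays numbered 3, 1 from each group, stood apart from the other 6 on principal component 1, which held 47.7% of the variance. Arrays that share a number deviated together from their group means. Values with the replicate number as a block are thus given where they change the call of a member's brightest probe set. Of 12 nucleus pulposus markers 6 had a probe set of their own. ACAN was between 497.4 and 4026 and HIF1A between 3189 and 5884 over the 9 arrays, COL2A1 was between 29.1 and 329.7, and the keratin genes KRT8, KRT18 and KRT19 were at 31.8 or less. The summed intensity of the 6 markers was 7456 to 9204 at 24 h, 4694 to 6118 at 5 h and 5036 to 6684 in control. Without the block 0 of the 4 tested were called at 24 h against control, and ACAN (1.35, adjusted p = 0.00041) and HIF1A (0.29, adjusted p = 0.044) rose with it. The part of this shift in the changes of the protease and inhibitor genes was not tested. In bulk samples such as these, fewer cells of a type and less RNA per cell cannot be told apart.

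At 24 h against control, 4 of the 43 tested genes rose (9.3%) and 3 fell (6.98%). Over all 18012 probe sets the shares were 4.28% higher and 4.32% lower. The genes that rose were the inhibitors TIMP2, SERPING1 and SERPINI1 and the collagen-degrading cysteine protease CTSK. The genes that fell were PLAU, its receptor PLAUR and the membrane protease ADAM19. The median log2 change was -0.0077 over the 43 genes and 0.023 over all probe sets tested. With the replicate block 9 genes rose (20.9%) and 11 fell (25.6%), against 18.3% and 17.5% of all probe sets. At 5 h against control, 0 genes rose and 0 fell with limma, with or without the block. Over all probe sets 0.233% rose and 0.25% fell, and 2.45% and 3.41% with the block. At an unadjusted p under 0.05, 1 of the 43 genes was higher (ADAMTS1) and 0 were lower. At 24 h against 5 h, 7 genes rose (16.3%) and 4 fell (9.3%), against 8.01% and 6.15% of all probe sets. With the block these were 11 (25.6%) and 10 (23.3%), against 24.2% and 19.6%. MMP2, ADAMTS5, SERPINB6 (0.39, adjusted p = 0.020) and SERPIND1 (0.41, adjusted p = 0.026) rose there only with the block. PLAU, ADAM12 (-1.42, adjusted p = 0.00059), ADAM19 (-0.68, 0.021), ADAM9 (-0.43, 0.0018), MMP16 (-0.66, 0.0040) and SERPINF2 (-0.52, 0.0043) fell there only with it. All 3 arrays at 24 h lay above all 3 at 5 h in 12 of the 43 genes (27.9%) and below them in 8 (18.6%). Over all probe sets these shares were 18.1% and 14.3%.

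**Figure D1:**
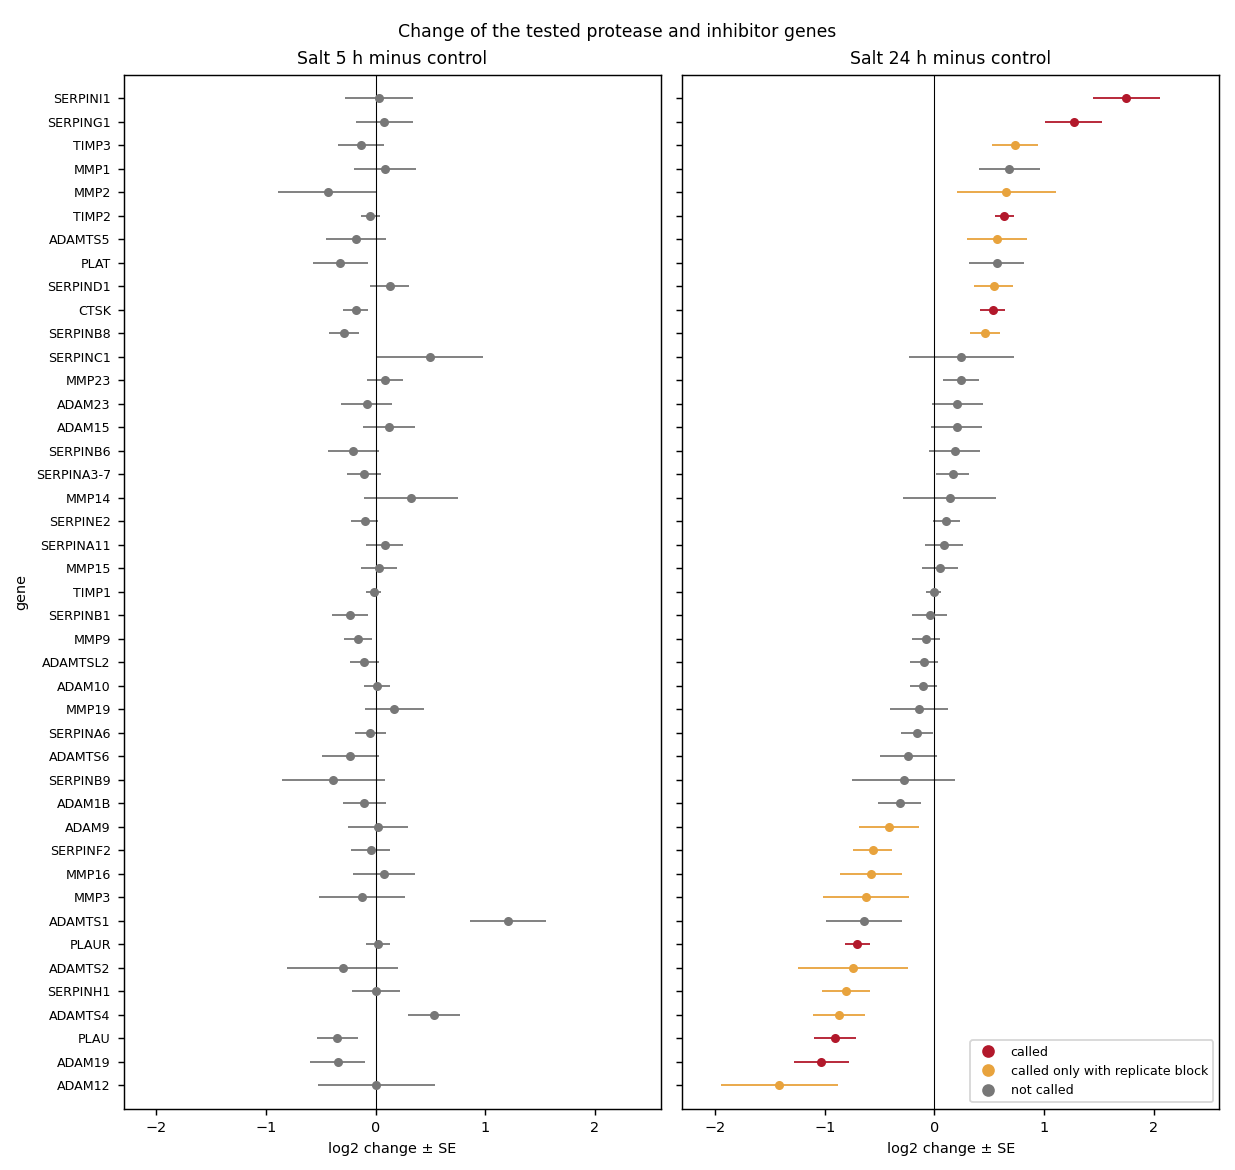
Log2 change with its standard error for the 43 tested genes at 5 h (left) and 24 h (right) against control, ordered by the 24 h change. Red marks genes called in the fit without a block and orange those called only with the replicate block; the left panel holds neither.

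Of the 3 tested tissue inhibitors, 1 (TIMP2) rose at 24 h against control and 0 fell. Over all probe sets 4.28% rose and 4.32% fell. TIMP2, which inhibits MMPs and also takes part in the activation of pro-MMP2 at the cell surface, had intensities of 4448, 4055 and 4288 at 24 h, against 2829, 2715 and 2665 in control. The arrays at 5 h read 2735, 2729.7 and 2476. The 24 h arrays thus lay above all 6 others, and within each group the arrays were close. TIMP2 rose by 0.64 ± 0.087 on the log2 scale (SE, n = 3 per group, adjusted p = 0.0067) at 24 h against control, a fold of 1.55, and by 0.69 ± 0.087 against 5 h (adjusted p = 0.0038). Both calls held in all 9 refits that omit 1 array. The dimmer TIMP2 probe sets had log2 changes of 0.46 (adjusted p = 0.20, and 0.0090 with the block) and 0.37 (adjusted p = 0.74) at 24 h against control.

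TIMP3, which is bound to the matrix and also inhibits ADAMTS4 and ADAMTS5, had 1396, 1866 and 1271 at 24 h, against 1163, 705.7 and 862 in control, and 735.6, 816.6 and 882.6 at 5 h. Salt at 24 h was above both other groups, with control replicate 1 the nearest. The log2 change against control was 0.73 ± 0.21 (adjusted p = 0.067, and 0.015 with the replicate block). Against 5 h TIMP3 rose by 0.87 ± 0.21 (adjusted p = 0.028). That call ended without replicate 1 or 2 of either salt group, with adjusted p up to 0.11, and with each array centred on its median (adjusted p = 0.051). TIMP1 read 11711, 10756 and 10644 at 24 h, against 11215, 11236 and 10812 in control. The groups overlap, and intensities this close to the array maximum may understate a change (log2 -0.0077 ± 0.070, adjusted p = 0.98). TIMP4 read between 5 and 20.7 on the 9 arrays and was not tested.

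Of 6 tested ADAMTS genes, 0 rose or fell against control at either time without the block (limma). With it 1 rose (16.7%) and 2 fell (33.3%) at 24 h, against 18.3% and 17.5% of all probe sets. ADAMTS1, which cleaves aggrecan, had 323, 608.5 and 338.7 at 24 h, 1777, 931.6 and 2078 at 5 h, and 490.1, 724.3 and 751.1 in control. All 3 arrays at 5 h lay above all 3 of control, and all 3 at 24 h lay below those at 5 h. Higher at 5 h without overlap were 4.04% of all probe sets. The log2 value at 5 h against control was 1.21 ± 0.35 (adjusted p = 0.27, and 0.054 with the block), with 1.82, 0.36 and 1.45 in replicate pairs 1, 2 and 3. At 24 h against 5 h ADAMTS1 fell by 1.85 ± 0.35 (adjusted p = 0.012), which ended without replicate 1 of either salt group (adjusted p up to 0.053). A dimmer ADAMTS1 probe set had 1.17 at 5 h against control and -1.75 at 24 h against 5 h (adjusted p = 0.071, and 0.0018 with the block).

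ADAMTS4, one of the main aggrecanases, had 103.1, 107.8 and 98.2 at 24 h, 302.1, 248.3 and 356.2 at 5 h, and 143.3, 210.5 and 270.3 in control. Every 24 h array was below every other array. ADAMTS4 fell by 1.40 ± 0.24 at 24 h against 5 h (adjusted p = 0.0082), and this held with each array left out. Its log2 value against control was -0.87 ± 0.24 at 24 h (adjusted p = 0.055, and 0.0047 with the block) and 0.53 ± 0.24 at 5 h (adjusted p = 0.70). In replicate pairs 1, 2 and 3 it was -0.42, -0.87 and -1.33 at 24 h and 0.998, 0.22 and 0.38 at 5 h.

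ADAMTS5, the other main aggrecanase, was dim, with 73, 43.5 and 34.4 at 24 h, against 24.5, 25.8 and 17.2 at 5 h and 45.9, 21.1 and 19.6 in control. All 24 h arrays lay above all 5 h arrays, as in 18.1% of all probe sets, and the 24 h arrays overlapped control. Its log2 value was 0.75 ± 0.27 at 24 h against 5 h (adjusted p = 0.11, and 0.0040 with the block) and 0.57 ± 0.27 against control (adjusted p = 0.26, and 0.019 with the block). ADAMTS5 and ADAMTS1 are next to each other in the RefSeq gene order of cattle (assembly ARS-UCD2.0), with 0 protein-coding genes between them, and their values at 24 h against 5 h had opposite signs in all 3 replicate pairs. ADAMTS2, which trims procollagen, had 19.6, 13.8 and 3.3 at 24 h, against 67.4, 33.2 and 7.5 in control. Its log2 value was -0.75 ± 0.50 (adjusted p = 0.45, and 0.0082 with the block). ADAMTS6 and the protease-like ADAMTSL2, which has no protease domain, had log2 values of -0.24 and -0.098 at 24 h and were not called. ADAMTS8 read at most 8.2.

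**Figure D2:**
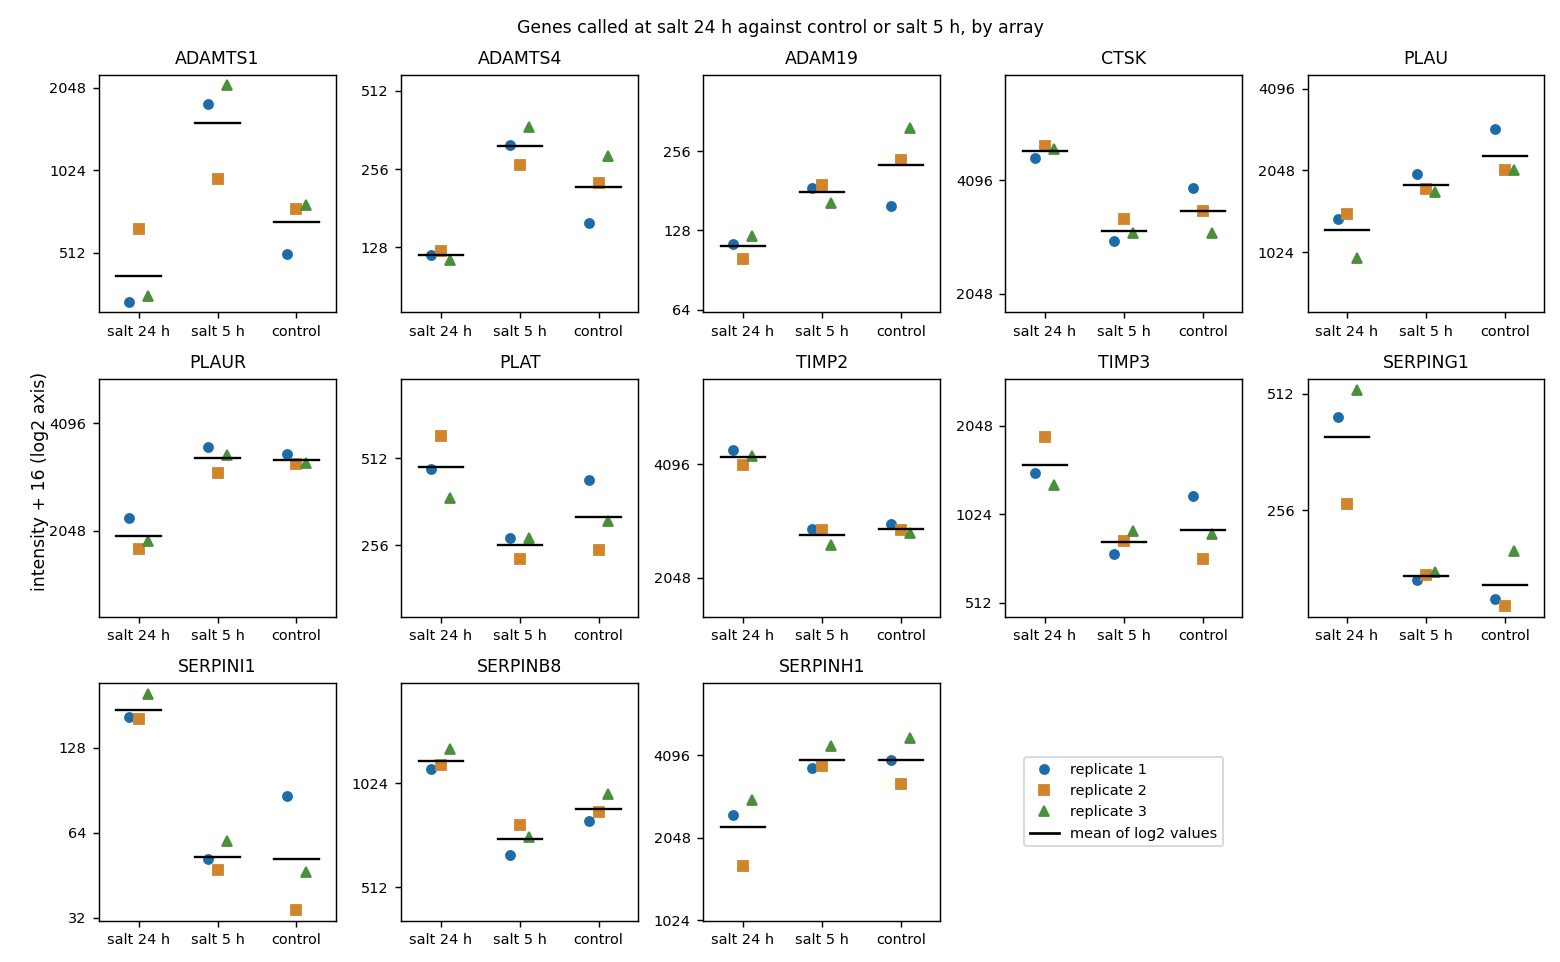
Intensity plus 16 on a log2 axis for the 13 genes called at 24 h in salt against control or against 5 h, with 1 point per array, shaped by replicate number, and a bar at the mean of the log2 values. TIMP2 lay at 4055 to 4448 at 24 h and at 2829 or less on the other arrays, while ADAMTS1 was highest at 5 h.

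Urokinase and its receptor fell at 24 h. PLAU had 1336, 1402 and 956.8 at 24 h, against 2896, 2046 and 2029.7 in control, with 1966, 1737 and 1694 at 5 h. The 3 groups did not overlap, and the 5 h arrays lay between the others; 6.6% of all probe sets were lower at 5 h than in control without overlap. PLAU fell by 0.91 ± 0.19 at 24 h against control (adjusted p = 0.024), a fold of 0.534, and its log2 value at 5 h was -0.35 ± 0.19 (adjusted p = 0.87). The call ended without control replicate 2 or 3, or 24 h replicate 1 or 3 (adjusted p up to 0.070), and in a fit to the 6 arrays compared (0.060). Against 5 h the value was -0.56 ± 0.19 (adjusted p = 0.086, and 0.0047 with the block).

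PLAUR had 2213, 1811 and 1902.5 at 24 h, against 3337, 3142 and 3165 in control, and 3507, 2953 and 3331 at 5 h. Values at 24 h were below both other groups, which overlapped each other. It fell by 0.70 ± 0.11 at 24 h against control (adjusted p = 0.010) and by 0.72 ± 0.11 against 5 h (adjusted p = 0.0061). Both calls held with each array left out in turn. The values of pairs 1, 2 and 3 against control were -0.59, -0.79 and -0.73.

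PLAT, the other plasminogen activator, had 453.2, 594.5 and 357.7 at 24 h, against 255.1, 212.6 and 255.4 at 5 h and 413.4, 230.5 and 295 in control. It rose by 0.89 ± 0.25 at 24 h against 5 h (adjusted p = 0.046), but 24 h and control overlapped (0.57 ± 0.25, adjusted p = 0.21). The call against 5 h ended without control replicate 3, any 5 h replicate, or 24 h replicate 1 or 2 (adjusted p up to 0.13). It also ended with no filter on dim probe sets (0.057), with quantile normalization (0.064), with median centring (0.079) and in the fit to 6 arrays (0.051). Over PLAU, PLAUR and PLAT, the 24 h changes against control were thus -0.91, -0.70 and 0.57. Plasminogen itself (PLG) read 10.6 to 15.4 at 24 h, 13.5 to 20.1 at 5 h and 9.4 to 17.5 in control, and was below the filter.

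Serpins made up the greatest number of members. At 24 h against control 2 of 14 tested rose (14.3%) and 0 fell, against 4.28% and 4.32% of all probe sets. With the block 4 rose (28.6%) and 2 fell (14.3%), against 18.3% and 17.5%. SERPINI1, neuroserpin, which inhibits PLAT, had 147.7, 145.2 and 182.5 at 24 h, against 35.6, 31.3 and 43.8 at 5 h and 70.3, 18.1 and 30.6 in control. All 24 h arrays were at 145.2 or more and all others at 70.3 or less. SERPINI1 rose by 1.75 ± 0.31 at 24 h against control (adjusted p = 0.014), a fold of 3.37, and by 1.72 ± 0.31 against 5 h (adjusted p = 0.011). Pairs 1, 2 and 3 gave 0.92, 2.24 and 2.09 against control, and 1.67, 1.77 and 1.73 against 5 h. The call against control ended without control replicate 2 or 3 or 24 h replicate 1 (adjusted p up to 0.058), and that against 5 h held with each array left out.

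SERPING1, the inhibitor of the complement proteases C1r and C1s, had 430.3, 250.2 and 508.4 at 24 h, against 152.7, 158.3 and 161.3 at 5 h and 135.2, 129.1 and 185.2 in control. No array at 24 h overlapped the others, and replicate 2 was the nearest to them. SERPING1 rose by 1.27 ± 0.26 against control (adjusted p = 0.022) and by 1.19 ± 0.26 against 5 h (adjusted p = 0.020). The call against control ended without control replicate 1 or 2 or 24 h replicate 1 or 3 (adjusted p up to 0.093). The call against 5 h ended without 5 h replicate 1 or 2 or 24 h replicate 1 or 3 (up to 0.079), and with median centring (0.0501). In the fit to the 6 arrays compared, the value against control had an adjusted p of 0.060. A dimmer SERPING1 probe set gave 1.17 against control (adjusted p = 0.21, and 0.00071 with the block).

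SERPINB8, an intracellular serpin, had 1109, 1141 and 1272 at 24 h, 619, 761.4 and 699.9 at 5 h, and 778, 829.1 and 939.4 in control. The 3 groups did not overlap, with 5 h lowest and 24 h highest. SERPINB8 rose by 0.75 ± 0.14 at 24 h against 5 h (adjusted p = 0.011), a call that ended without 5 h replicate 1 (0.051). Against control its log2 values were 0.46 ± 0.14 at 24 h (adjusted p = 0.072, and 0.0048 with the block) and -0.29 ± 0.14 at 5 h (adjusted p = 0.77). At 24 h, 13.9% of all probe sets were higher than in control without overlap and 13.5% lower; among the 43 genes these were 8 (18.6%) and 7 (16.3%).

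SERPINH1, which assists the folding of procollagen in the endoplasmic reticulum and is no protease inhibitor, had 2474, 1601 and 2796 at 24 h, against 3664, 3719.7 and 4412 at 5 h and 3933, 3212 and 4736 in control. All 3 values at 24 h were below the other 6. It fell by 0.81 ± 0.22 at 24 h against 5 h (adjusted p = 0.040). That call ended without control replicate 1, any 5 h replicate or 24 h replicate 1 or 2 (adjusted p up to 0.098), with quantile normalization (0.066) and in the fit to 6 arrays (0.058). Against control the value was -0.81 ± 0.22 (adjusted p = 0.054, and 0.00067 with the block). SERPINF2, the plasmin inhibitor alpha-2-antiplasmin, had 195.6, 189 and 155.1 at 24 h, against 283.1, 292.6 and 243.8 in control (log2 -0.56 ± 0.18, adjusted p = 0.086, and 0.0037 with the block). SERPIND1, a thrombin inhibitor, had 92.2, 61.9 and 64.9 at 24 h, against 45.3, 41.1 and 47.3 in control (0.54 ± 0.18, adjusted p = 0.10, and 0.0091 with the block).

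SERPINE2, protease nexin 1, which inhibits urokinase and thrombin, read 10302, 10479.5 and 11179 at 24 h, against 10958, 8573 and 10264 in control. The groups overlapped near the top of the array range (log2 0.11 ± 0.12, adjusted p = 0.70). The other 7 tested serpins, among them SERPINB1, SERPINB6, SERPINB9 and antithrombin (SERPINC1), had log2 values between -0.28 and 0.25 at 24 h against control and were not called with or without the block. Cattle hold several SERPINA3 genes of near-identical sequence, so the SERPINA3-7 probe set may read more than 1 of them. SERPINF1 (5.3 to 35.2 over the 9 arrays) was not tested, and neither was the broad protease trap A2M (7 to 16.2).

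CTSK cleaves collagen and is best known from osteoclasts. It had 4689, 5054 and 4946 at 24 h, against 2803, 3214 and 2949.5 at 5 h and 3884, 3371 and 2958 in control. Every 24 h array was above every other array. CTSK rose by 0.53 ± 0.11 at 24 h against control (adjusted p = 0.026) and by 0.71 ± 0.11 against 5 h (adjusted p = 0.0071). The second call held with each array left out. The first ended without control replicate 2 or 3 or any 24 h replicate (adjusted p up to 0.093), and in the fit to 6 arrays (0.057).

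Many ADAM proteases shed proteins from the cell surface. Of 7 tested ADAM genes, 1 (ADAM19) fell at 24 h against control (14.3%) and 0 rose, and with the block 3 fell (42.9%). Over all probe sets 4.32% fell, and 17.5% with the block. ADAM19 had 97.5, 83.4 and 106.3 at 24 h, against 169.8, 173.5 and 146.8 at 5 h and 142.6, 220.5 and 298.4 in control. The 24 h arrays lay below the rest, and the control arrays were widely spread. It fell by 1.03 ± 0.25 at 24 h against control (adjusted p = 0.038). That call was kept only without control replicate 1 or 5 h replicate 3, and the highest adjusted p with another array left out was 0.13. In the fit to 6 arrays it was 0.085.

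ADAM12 had 480.4, 219 and 154.8 at 24 h, against 849.4, 919.8 and 451.2 in control and 1224, 855.2 and 339.9 at 5 h. Groups overlapped, since replicate 3 was the lowest in each, but every pair moved the same way at 24 h, by -0.80, -1.99 and -1.45. The log2 value against control was -1.42 ± 0.53 (adjusted p = 0.14, and 0.00084 with the block). ADAM9 had 1215, 942.8 and 1594 at 24 h, against 1709, 1224 and 2077 in control. Its pairs gave -0.49, -0.37 and -0.38, close to each other, and its log2 value was -0.41 ± 0.27 (adjusted p = 0.44, and 0.0031 with the block). Of its dimmer probe sets, one gave -0.51 (adjusted p = 0.135, and 0.0075 with the block). Another gave -0.29 and was not called even with the block (adjusted p = 0.134), nor against 5 h (-0.17, 0.35 with the block). ADAM10, the sheddase of Notch and many other receptors, had 1152, 1283 and 1170.2 at 24 h, against 1356, 1182 and 1337 in control (-0.10, adjusted p = 0.72, and 0.47 with the block). ADAM1B, ADAM2, ADAM15 and ADAM23 read 49.2 or less on every array.

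Of 9 tested MMP genes 0 rose and 0 fell in any comparison without the block (limma). The comparison of 24 h with control had 1 higher at an unadjusted p under 0.05. There 1 rose (11.1%) and 2 fell (22.2%) with the block, against 18.3% and 17.5% of all probe sets. MMP2, a gelatinase that TIMP2 both inhibits and helps to activate, had 4520.2, 4081 and 2124 at 24 h, against 4062, 1926 and 1268 in control and 2134, 1735 and 1075 at 5 h. Replicate 3 was lowest in each group, so the groups overlapped. At 24 h against 5 h the pairs gave 1.08, 1.23 and 0.97, with a log2 value of 1.09 ± 0.45 (adjusted p = 0.15, and 0.00051 with the block). Against control the log2 value was 0.66 ± 0.45 (adjusted p = 0.46, and 0.0091 with the block).

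Stromelysin 1 (MMP3), which activates other pro-MMPs, had 667.6, 695.4 and 354.2 at 24 h, against 1483, 728.1 and 574.1 in control. Its log2 value was -0.62 ± 0.39 (adjusted p = 0.41, and 0.026 with the block), mostly from pair 1 at -1.13. Pairs 2 and 3 gave -0.065 and -0.67. The collagenase MMP1 had 203.1, 459.4 and 245.8 at 24 h, against 194.2, 141.4 and 183.5 in control. These did not overlap, but replicate 2 carried most of the difference (0.68 ± 0.28, adjusted p = 0.18, and 0.058 with the block). The membrane-type MMP16 had 301.2, 158.5 and 339.4 at 24 h, against 404.1, 307.3 and 466.7 in control (-0.58 ± 0.28, adjusted p = 0.27, and 0.0094 with the block). A dimmer MMP16 probe set gave -0.40 at 24 h against control (adjusted p = 0.062 with the block) and -0.19 against 5 h (0.33). It was not called with or without the block. MMP14, the main activator of MMP2, read 13.3 to 55 over the 9 arrays and MMP9, the other gelatinase, 13.9 to 23.3. Both were close to the filter, so a change in them may not be detectable here. The brightest MMP23 probe set was not called in any comparison, with or without the block. A dimmer MMP23 probe set had 42, 26.7 and 32.5 at 24 h, against 10.5, 9.3 and 9.0 at 5 h and 12.2, 10.1 and 7.4 in control. It lay below the filter and was not tested, so the counts of MMP genes leave it out.

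The collagenase MMP13 lay below the filter as a mean, yet its values followed the replicate number. Replicate 2 read 88.9 at 24 h, 28.2 at 5 h and 42.3 in control, while the other 6 arrays read between 0 and 5.4. In the RefSeq order MMP3 and MMP1 are adjacent, with 0 protein-coding genes between them, and 1 lies between MMP13 and MMP3. MMP13 and MMP1 were both highest on 24 h replicate 2, and MMP3 on control replicate 1.

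**Figure D3:**
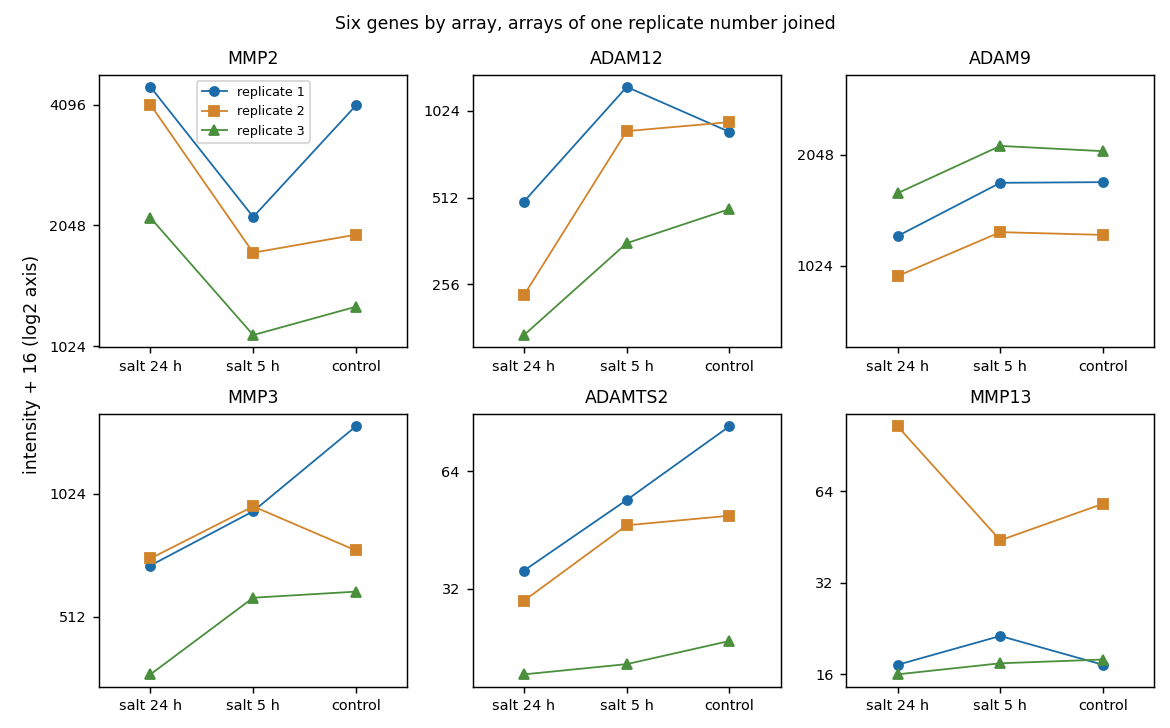
Intensity plus 16 on a log2 axis for MMP2, ADAM12, ADAM9, MMP3, ADAMTS2 and MMP13, with lines joining arrays that share a replicate number. The lines of MMP2 and ADAM9 are nearly parallel between 24 h and 5 h, and MMP13 is at 28.2 or more only on the arrays numbered 2.

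How far the brightest probe set of a gene followed the treatment or the replicate number differed widely among the 43 genes. The share of a gene's variance over the 9 arrays that lay between the 3 groups had a median of 38.1%, and the share between replicate numbers a median of 37.8%, against 34.7% and 41.8% over all probe sets tested. Groups took over 50% in 18 genes (41.9%) and replicate numbers in 13 (30.2%), against 36.1% and 42.4% of all probe sets tested. The group share was 97.1% for TIMP2, 92.6% for PLAUR, 89.4% for SERPINB8, 88.9% for CTSK and 86.0% for ADAMTS4. The replicate share was 86.8% for ADAM15, 84.4% for SERPINB9, 72.7% for ADAMTS2 and 70.5% for ADAM9. It can depend on the probe set. The brightest ADAM9 probe set was highest on the arrays numbered 3 in each group. A dimmer one read 42.6 to 54.2 there and 128.3 to 214 on the others. A dimmer ADAM10 probe set read 143.8 to 167.5 on the arrays numbered 3 and 620.4 to 783.9 on the others, while the brightest read 1151.7 to 1384.3 on all 9. The shares come from the same arrays as the calls and are a description of them.

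**Figure D4:**
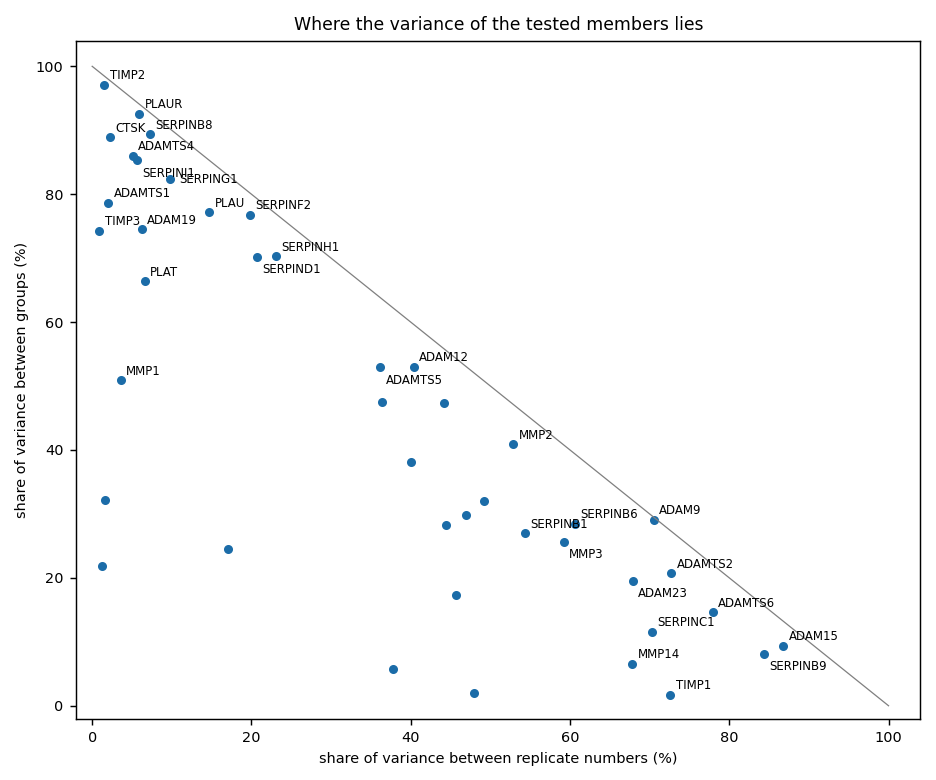
Share of variance over the 9 arrays that lies between groups (vertical, %) and between replicate numbers (horizontal, %), with 1 point per tested gene. TIMP2 (97.1% between groups) and ADAM15 (86.8% between numbers) mark the ends of the range, and the line is where both add to 100%.

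Without the 3 arrays numbered 3, a setting chosen after the data were seen, 3 genes rose and 5 fell at 24 h against control, beside 919 and 745 of all probe sets. TIMP2, SERPING1, SERPINI1, PLAU and PLAUR were among them. ADAM12 (-1.40), ADAMTS2 (-0.98) and SERPINH1 (-0.83) were added, while CTSK (adjusted p = 0.099) and ADAM19 (0.051) were lost. At 24 h against 5 h, 8 rose and 6 fell, beside 1898 and 1471 of all probe sets. These are the 11 genes called on all arrays plus MMP2, ADAM12 and ADAM19. Without the arrays numbered 1 or those numbered 2, 0 of the members were called in any comparison. Such fits have 2 arrays a group. Over all probe sets at 24 h against control, 0 were called without the arrays numbered 1, and 19 higher and 4 lower without those numbered 2. With each array centred on its median, 4 genes rose and 6 fell at 24 h against 5 h, in place of 7 and 4. That centring moved the median of all probe sets at 24 h against 5 h to -0.096, in place of 0.057.

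Other genes around these proteases were read from lists. Over all probe sets the shares at 24 h against control were 4.28% higher and 4.32% lower, and with the block 18.3% and 17.5%; against 5 h they were 8.01% and 6.15%. Of 21 tested extracellular and lysosomal proteases outside the rule, 2 rose at 24 h against control and 0 fell: legumain (LGMN, 0.66 ± 0.13, adjusted p = 0.018) and cathepsin B (CTSB, 0.74 ± 0.18, adjusted p = 0.038). Their median was 0.38, and 11 rose and 1 fell with the block. Against 5 h, 5 rose, with the extracellular serine protease HTRA1 (0.99, adjusted p = 0.025), CTSZ (0.58, adjusted p = 0.033) and CTSL (0.98, adjusted p = 0.034) added to LGMN and CTSB. Of 9 tested inhibitors outside the rule, cystatin C (CST3), which inhibits cathepsins, rose by 1.35 ± 0.23 (adjusted p = 0.013), and the Kunitz inhibitor TFPI2, which inhibits plasmin, fell by 1.17 ± 0.27 (adjusted p = 0.032) at 24 h against control. With the block 5 rose and 1 fell.

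Of 9 tested receptors and cofactors of plasminogen activation and clearance, 0 rose or fell at 24 h against control without the block (limma), and 2 rose and 1 fell with it. The collagen uptake receptor MRC2 rose at 24 h against 5 h (0.91 ± 0.20, adjusted p = 0.022). Of 16 matrix proteins that these proteases cut, decorin (DCN) rose at 24 h against control, and the small proteoglycan FMOD also rose against 5 h (0.58 ± 0.12, adjusted p = 0.016). With the block 7 rose and 3 fell against control. The medians at 24 h against control were 0.63 for the inhibitors, -0.011 for the receptors and 0.22 for the matrix proteins, beside 0.023 over all probe sets.

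Markers of other cells were set beside these changes. The summed intensity of 8 leukocyte markers was 446 to 482 at 24 h, against 253 to 269 at 5 h and 227 to 262 in control. Among them only CD14 rose at 24 h against control, by 1.43 ± 0.19 (adjusted p = 0.0054). With the block CSF1R rose at 5 h (0.67, adjusted p = 0.030). PTPRC, found on all leukocytes, read 17.2 to 36.8 at 24 h, 0 to 29 at 5 h and 6.1 to 24.4 in control, and ITGAM read 7.4 or less on every array. The sum of 5 endothelial markers was 150 to 191 at 24 h and 120 to 194 in control. Without the block 0 of them rose or fell, and with it TEK rose (0.49, adjusted p = 0.015). The sum of 4 neutrophil and mast cell markers was 55.5 to 92.1 at 24 h and 51 to 102.6 in control. Of 5 measured annulus and tendon-type markers, COL12A1 and THY1 rose at 24 h and 0 fell without the block, while COL1A1 (-0.32) and COL1A2 (-0.22) fell with it, and their sum was 13376 to 17181 at 24 h and 11262 to 17878 in control. The sum of 4 skeletal muscle markers was 2116 to 3480.5 at 24 h, 1139 to 3417 at 5 h and 892.4 to 1085 in control, and CKM rose at 24 h (1.99, adjusted p = 0.032). With the block ACTA1 also fell at 24 h (-0.60, adjusted p = 0.0023), and CKM rose at 5 h (1.57, adjusted p = 0.010). The part of other cells in the changes of CTSK, SERPING1 and the other members was not tested.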

How the data were processed

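RNA of 9 samples was labelled with biotin and read on one-colour Affymetrix bovine arrays. The authors deposited linear intensities. Per the submitters' processing notes, Affymetrix Expression Console and PLIER were used; the sources used here give no settings and no normalization between arrays. Depth has no meaning for arrays, and their number limits precision.

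The deposited intensities were used as log2(intensity + 16), which understates changes of dim probe sets. The 112 control probe sets and those with a mean log2 value below the 25th percentile (5.05) were left out, and 18012 of 24016 were tested. limma 3.58.1 in R 4.3.3 (lmFit, eBayes with trend) fitted the means of 3 groups to all 9 arrays, and every adjusted p is Benjamini-Hochberg adjusted over all probe sets tested, called under 0.05. No further normalization was applied. The procedure was run on simulated data with independent errors for each array. Those data lack the deviations that arrays of the same number share here, so that run does not bear on them. Gene symbols came from the platform annotation, and all 54 members matched a current bovine gene table by number with 0 symbols changed. Of the members 21 have more than 1 probe set. ADAM17 and ADAMTS9 had no probe set of their own in that annotation and were not analysed here.

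The members and lists were chosen with earlier results of these data known. Named are all members called with or without the replicate block, and 25 genes fixed by name, where they are members. Genes in lists are named when called, up to 4 per list. Arrays with the same number correlated in their deviations from group means at 0.56 to 0.90 in all 9 cross-group pairs. Arrays numbered 1 and 2 also correlated with each other across groups, at 0.31 to 0.54. Those numbered 3 correlated negatively with both (-0.78 to -0.52). Each deviation is from its own group mean, so correlations across numbers partly follow from the shared deviation of the arrays numbered 3. A pairing by number is thus clearer for the arrays numbered 3 than for those numbered 1 and 2. The main fit used no pairing, and the number entered only as the block. Alternatives were pseudocounts of 1 and 64, no filter, median centring, quantile normalization, the block, the 6 arrays compared and leaving out each array.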

Additional observations from a re-analysis of the deposited data

Results flagged for a closer look

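The 24 h change differed from the 5 h change, by the limma test of 24 h minus 5 h, in 11 genes; the control arrays cancel in that test. The difference was positive for SERPINI1 (1.72), SERPING1 (1.19), PLAT (0.89), TIMP3 (0.87), SERPINB8 (0.75), CTSK (0.71) and TIMP2 (0.69). It was negative for ADAMTS1 (-1.85), ADAMTS4 (-1.40), SERPINH1 (-0.81) and PLAUR (-0.72). ADAMTS1 and ADAMTS4 had positive log2 values against control at 5 h (1.21 and 0.53) and negative ones at 24 h (-0.65 and -0.87), and none of these 4 values was called without the block. Groups of 3 arrays are too small for a test of single outlying arrays.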

How the results depend on the processing

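All 18 calls of single genes, 7 at 24 h against control and 11 at 24 h against 5 h, kept their direction under each alternative run. Each was also called with pseudocounts of 1 and 64 and with the replicate block; 3 were lost with median centring, 2 with quantile normalization, 1 with no filter and 6 in fits to the 6 arrays compared. The 7 values from other probe sets of the same genes had the same direction and were not called. With the replicate block the counts at 24 h were 9 higher and 11 lower against control, and 11 higher and 10 lower against 5 h, and with the block and quantile normalization, added after the data were seen, 9 and 12, then 10 and 11. The block changed no call at 5 h. A fit without the third group gave 2 higher and 1 lower at 24 h against control. With median centring 4 were higher at 24 h against 5 h. With 1 array left out, counts at 24 h against control ran from 1 to 4 higher and 1 to 4 lower, and against 5 h from 3 to 7 higher and 2 to 4 lower. Against control the lowest higher count came without control replicate 2 or 24 h replicate 1, and against 5 h without 5 h replicate 1. With the 3 arrays of 1 number left out the counts ran from 0 to 3 higher and 0 to 5 lower against control, and from 0 to 8 higher and 0 to 6 lower against 5 h. At 5 h against control the counts were 0 under every alternative. Fits with fewer arrays have fewer residual degrees of freedom; other causes were not tested. Genes near the filter, such as MMP9 and MMP14, and near the top of the range, such as TIMP1 and SERPINE2, limit what can be seen.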
